A study of Mus musculus with 6 samples.

Results

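Cish and Socs1 to Socs7 are the 8 genes of the suppressor of cytokine signalling (SOCS) family. They were read here in mouse CD4+ (helper) T cells. Members were taken by gene symbol: every probe set whose platform annotation gives exactly 1 symbol, and that symbol a member, was included. This gave 24 probe sets for the 8 genes, out of 45101 probe sets on the array and 18193 genes named by 1 symbol. Socs2 has 6 probe sets, Socs4 and Socs7 have 4 each, Socs3 and Socs6 have 3 each, Socs5 has 2, and Cish and Socs1 have 1 each. A filter on dim signals, described with the first test, was passed by 22 of the 24. The probe sets that missed it were 1 of Socs4 and 1 of Socs7. Probe sets of 1 gene share that gene and are not replicates.

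The cells came from spleen with peripheral and mesenteric lymph nodes. There were 6 arrays in 3 groups of 2, named Control, RA and Ro. The series title names retinoic acid, a metabolite of vitamin A, for which RA is the usual short form. What Ro stands for is not spelled out in the labels. No strain, age, dose or time is given for RA or Ro. A culture protocol stands with 1 array only, Control replicate 2. It lists human IL2 (100 U/ml) and human TGFb1 (5 ng/ml), the mouse cytokines IL6 and TNFa at 20 ng/ml each, and IL1b, IL23 and IL21 at 10 ng/ml each. Antibodies to mouse IL4 and IFN-gamma were added, over 5 days of culture. The labels give no such protocol for the other 5 arrays.

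SOCS proteins are feedback inhibitors of cytokine signalling. A cytokine receptor activates Janus kinases (JAKs), these phosphorylate STAT transcription factors, and the STATs switch on target genes that include the SOCS genes themselves. Each SOCS protein holds an SH2 domain, which binds phosphotyrosine on receptors or kinases, and a SOCS box, which recruits elongins B and C with a cullin ubiquitin ligase. Cish and Socs2 are best known as targets and inhibitors of STAT5, downstream of IL2 and growth hormone. Socs3 acts on receptors that use gp130, such as that of IL6. Socs1 blocks JAKs below the interferon receptors. Cish, Socs1, Socs2 and Socs3 are the members best known as rapidly cytokine-induced, whereas Socs4 to Socs7 are better known for roles around growth factor receptors.

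The letters that STATs and interferon regulatory factors read were searched for in RefSeq (GRCm38.p6) promoter windows of 300 bases around a gene's start. Of the members, only Cish, Socs1, Socs3 and Socs4 were searched. The other members were left out of the search, so the family cannot be compared by these letters. The stretches that hold a match, in Cish, Socs1 and Socs3, are shown because these genes carry the differences described next. TTCNNNGAA is the palindromic core of a STAT site and reads the same on both strands. Capitals mark a match to it in Cish and Socs3, and in Socs1 a match to GAAA, any 2 bases, then GAAA, the core read by interferon regulatory factors.
Cish: agttTTCCTGGAAagTTCTTGGAAat
Socs3: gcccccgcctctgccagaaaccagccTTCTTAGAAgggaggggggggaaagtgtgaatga
Socs1: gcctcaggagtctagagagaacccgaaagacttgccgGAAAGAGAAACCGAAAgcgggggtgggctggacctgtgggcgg
The Cish stretch is chr9:107296655-107296680 on the plus strand, and its first match begins at the annotated start of the gene. The Socs3 stretch is chr11:117969487-117969546 on the minus strand, with the match at bases -154 to -146 from the start used by the window. That start, at 117969366, lies inside the annotated gene span (117966079-117970336), and so does the match. The Socs1 stretch is chr16:10785577-10785656 on the minus strand. It holds 2 overlapping matches, at bases -83 to -74 and -77 to -68. Of 32851 windows of 300 bases, 8.30% hold at least 1 TTCNNNGAA and 0.457% hold 2 or more, as Cish does. The Socs1 motif, searched on both strands and with overlaps counted, is found at least once in 3.44% and at least 2 times in 0.225%. The Socs4 window (chr14:47276670-47276969) holds neither set of letters. A match describes the sequence and is not a measured binding site.

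Values are MAS5 signals in arbitrary units on a linear scale. A MAS5 signal summarises the probes of a probe set, and levels of different probe sets are not comparable. Array medians ran from 16.3 to 23.8. Control replicate 2 stood apart, with a correlation of log2 values over probe sets of 0.911 to 0.917 with the other 5 arrays, which had 0.961 to 0.972 among themselves. The 7 T cell markers measured (Cd2, Cd3d, Cd3e, Cd3g, Cd4, Cd5 and Cd28) summed to 18512 on Control replicate 2 and 24120 to 29262 on the others. Cd4 itself was 463 there and 1141 to 1791 elsewhere. Markers of other cells also differed between arrays. The 5 NK cell markers measured summed to 1800.0 on Control replicate 2 and 98.3 to 536 elsewhere, with Klrc1 and Klrk1 high there and Eomes at its lowest (20.7, against 76.1 to 240.4). Of the CD8 chains, Cd8a stood at 236 there and 4.29 to 23.2 elsewhere, whereas Cd8b1 was 85.0 there and 54.6 to 164 elsewhere. The 8 mast cell and basophil markers summed to 167 there and 1369 to 5935 elsewhere. Among them Kit went the other way, at 119.8 there and 25.1 to 103.9 elsewhere. The 7 macrophage and monocyte markers summed to 129 there and 527 to 3100 elsewhere. In bulk RNA, fewer cells of a type and less RNA per cell cannot be told apart.

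The highest Cish signal was on Control replicate 2. Cish, which encodes the family's first described member and dampens IL2 receptor signalling, had signals of 556 and 3185 in Control, 454 and 435 in RA, and 682 and 415 in Ro. Control replicate 2 was 4.67 times the next highest array, while Control replicate 1 lay among the RA and Ro arrays. The Control mean was 1871 ± 1859 (SD, n = 2), the RA mean 444 ± 13.6 (SD, n = 2) and the Ro mean 549 ± 188 (SD, n = 2). The Control SD, close to the mean itself, comes from the gap between its 2 arrays.

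Socs2, whose product restrains growth hormone and STAT5 signalling, was also highest there. Its representative probe set, the one of highest mean log2 value, gave 1088 and 3553 in Control, 747 and 687 in RA, and 1467 and 737 in Ro. Control replicate 2 was again highest, and Ro replicate 1 was next. The 5 further Socs2 probe sets also had their highest signal on Control replicate 2, at 1.14 to 3.61 times the next highest array. For 1 of them the signal was dim, with 26.1 on Control replicate 2 and 3.36 to 12.6 elsewhere, and passed the filter only through the Control arrays. Since its place in the test was decided by the group where it is high, it is left out of every count of array order that follows, as are all probe sets that passed through the 2 arrays of 1 group alone.

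Socs3, which curbs gp130 and IL6 signalling through STAT3, had signals of 333 and 1561 in Control, 237 and 422 in RA, and 290.0 and 817 in Ro. Control replicate 2 led by 1.91 times over Ro replicate 2. The other 2 Socs3 probe sets, marked as cross-hybridising by their names, put Control replicate 2 at 2617 and 1863, with the highest of the other arrays at 1013 and 574 on Ro replicate 2.

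Socs1, the inhibitor of JAKs below the interferon receptors, had signals of 273 and 735 in Control, 183 and 198 in RA, and 350 and 472 in Ro. Control replicate 2 was highest here too, by 1.56 times over Ro replicate 2, the smallest lead among these 4 genes when each is read from its representative probe set. RA and Ro did not overlap, and Control replicate 1 lay between them. RA had a mean of 190.2 ± 10.6 (SD, n = 2), and the Ro mean was 411 ± 86.6 (SD, n = 2).

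**Figure D1:**
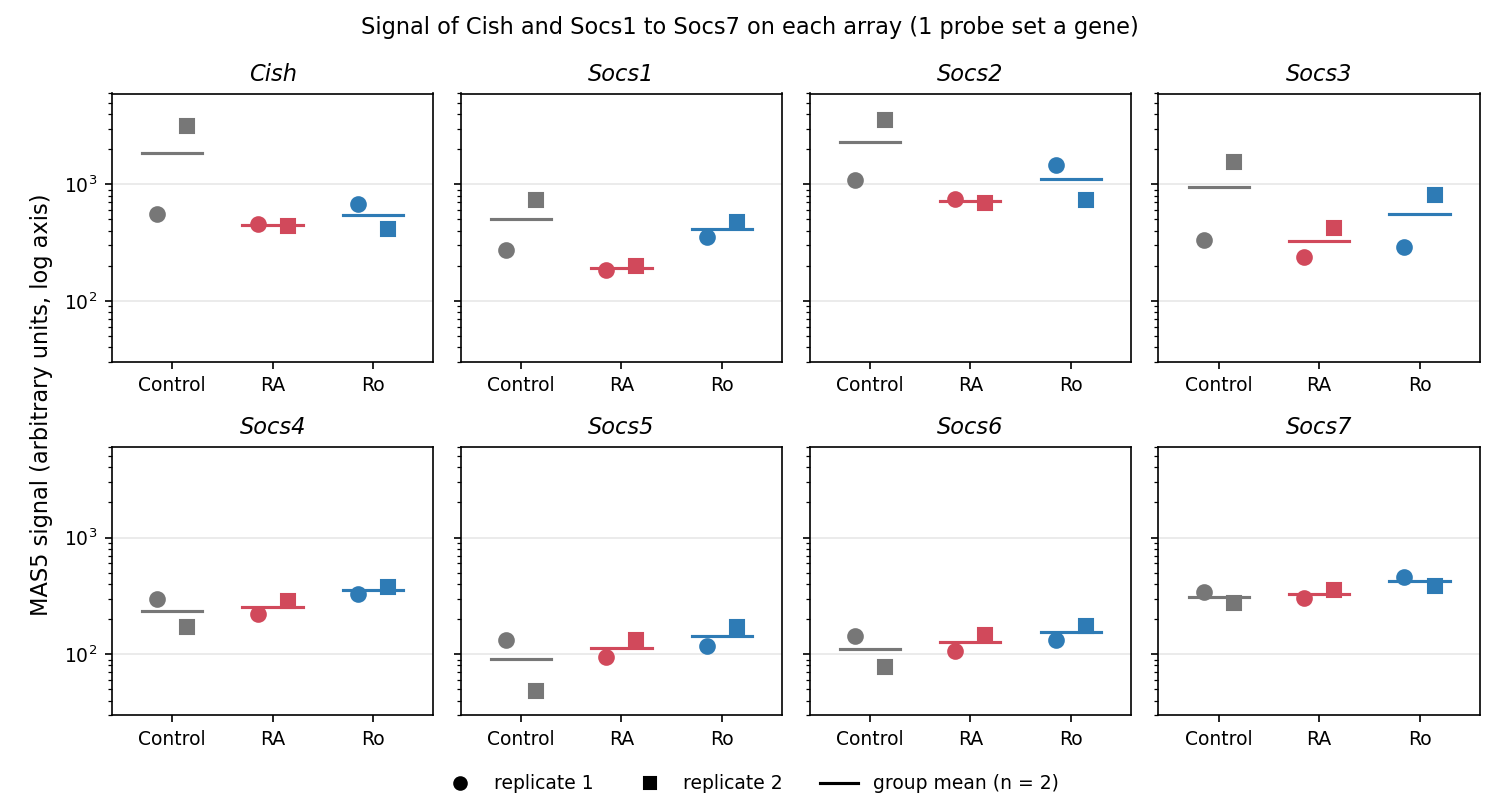
MAS5 signal in arbitrary units (vertical log axis) of the representative probe set of each of the 8 genes, by group; circles are replicate 1, squares replicate 2 and lines the group mean of 2 arrays. Cish, Socs1, Socs2 and Socs3 are highest on Control replicate 2 (735 to 3553), Socs4 to Socs7 lowest on it (48.7 to 274), and Socs1 separates RA (183 and 198) from Ro (350 and 472).

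Socs4 to Socs7 were not high on Control replicate 2. Socs4, known for a part in controlling the epidermal growth factor receptor, had signals of 296 and 170.2 in Control, 221 and 285 in RA, and 329 and 379.8 in Ro. Socs5, also linked to that receptor, had 132 and 48.7 in Control, 94.5 and 131 in RA, and 117 and 169.7 in Ro. Both genes were lowest on Control replicate 2, and the RA and Ro arrays overlapped for Socs5 but not for Socs4. Socs6, whose product is known to bind the receptor kinase Kit, had 144 and 77.5 in Control, 106 and 147 in RA, and 133 and 174 in Ro. Socs7, which shuttles between nucleus and cytoplasm, had 345 and 274 in Control, 303 and 354 in RA, and 455 and 387 in Ro. Socs6 overlapped between RA and Ro and Socs7 did not. For each of these 4 probe sets, Control replicate 2 had the lowest signal and a Ro array the highest.

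The further probe sets of Socs4 to Socs7 varied more. Of the 11 probe sets of these genes that passed the filter, 7 were lowest and 1 was highest on Control replicate 2. The exception was a dim Socs6 probe set, at 16.2 there and 7.63 to 13.9 elsewhere. The probe sets that missed the filter had signals of 1.06 to 14.6 (Socs4) and 0.578 to 8.80 (Socs7), too dim to order the arrays. The 10 probe sets of Cish, Socs1, Socs2 and Socs3 that were counted were all highest on Control replicate 2. Over the 29076 probe sets counted in this way, 15.5% were highest and 51.5% lowest on that array. A lead of at least 2-fold over every other array was found for 7 of the 10 and for 0 of the 11 of Socs4 to Socs7, against 2.82% of all probe sets counted. By representative probe set the lead was 4.67 times for Cish, 2.42 for Socs2, 1.91 for Socs3 and 1.56 for Socs1. With 1 probe set a gene, 3.76% of all genes counted had a lead of at least 2-fold. Control replicate 2 was at least 2-fold above Control replicate 1 for 10 of the 10 and for 0 of the 11 of Socs4 to Socs7, against 7.72%. The split followed the members' known cytokine inducibility and was made with earlier results of these data known. With the arrays quantile normalised, the counts at the top on Control replicate 2 were 10 of 10 and 3 of 11, against 32% of all probe sets.

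**Figure D2:**
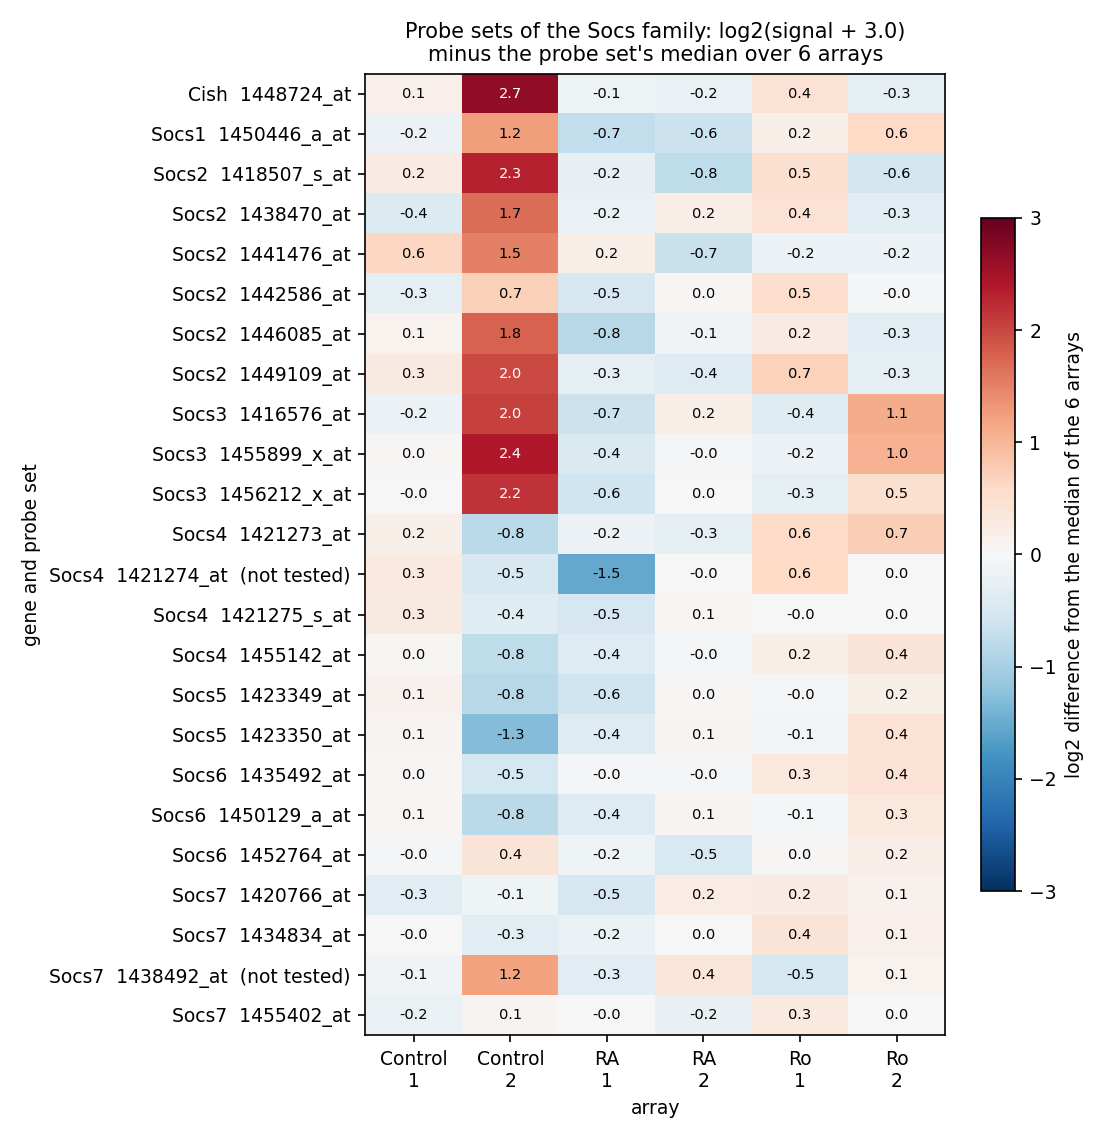
Each row is 1 of the 24 probe sets and each column 1 array; the colour and the printed value give log2(signal + 3.0) minus the probe set's median over the 6 arrays. The Control replicate 2 column runs from 0.71 to 2.66 for the 10 counted probe sets of Cish, Socs1, Socs2 and Socs3. It runs from -1.30 to 0.39 for the tested probe sets of Socs4 to Socs7. The Socs2 probe set left out of the counts passed the filter through the Control arrays alone.

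Differences between groups were tested with limma over all probe sets that lay above the 40th percentile of their array on at least 2 of the 6 arrays. The scale was log2(signal + 3.0), which understates differences of dim probe sets. Over all probe sets tested, the median difference was -0.21 for RA minus Ro, 0.09 for RA minus Control and 0.29 for Ro minus Control. Log2 differences of the members are given relative to these medians, and p-values belong to the differences before that correction. With 2 arrays against 2 the smallest exact permutation p for a single gene is 0.333, so only the fit across all probe sets was used. The labels do not say that replicates were separate cultures or animals, so the p-values rest on the spread between these arrays alone, and that spread may be technical.

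Cish, Socs1, Socs2 and Socs3 lay lower in RA than in Control by value, without passing the test. The log2 differences of RA minus Control were -1.66 (SE 0.75) for Cish, -1.31 (SE 0.52) for Socs1, -1.54 (SE 0.59) for Socs2 and -1.27 (SE 0.80) for Socs3, each at a limma adjusted p of 0.977. None of 22 member probe sets was called, and 0% of all probe sets were (0 of 29507). At an unadjusted p under 0.05 limma had 3 of the 22 members (Socs1 and 2 probe sets of Socs2) and 535 of all probe sets, or 1.81%. Both RA arrays lay below both Control arrays for 7 of 21, 6 of them among Cish, Socs1, Socs2 and Socs3, against 14.7% of all probe sets counted. For Ro minus Control the values were -1.60 (SE 0.75) for Cish, -0.43 (SE 0.52) for Socs1, -1.20 (SE 0.59) for Socs2 and -0.85 (SE 0.80) for Socs3. Limma adjusted p-values were 0.661, 0.929, 0.661 and 0.797 in that order, and 0 of 22 members and 0% of all probe sets were called. At an unadjusted p under 0.05 there were 0 of the 22 and 1201 of all probe sets, or 4.07%. Both Ro arrays lay above both Control arrays for 5 of 21, all of Socs4 to Socs7, against 25.9% of all probe sets, and below them for 0 of 21, against 9.23%. Both comparisons use the same 2 Control arrays.

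These values rested on Control replicate 2. Without Control replicate 1, limma called 9 of 21 member probe sets for RA minus Control, all lower in RA: Cish, Socs1, 4 of Socs2 and 3 of Socs3. Lower in RA were 3.65% of all probe sets in that fit. Cish then stood at -3.19 (limma adjusted p = 0.00322), Socs1 at -2.29 (0.0114), Socs2 at -2.66 (0.00955) and Socs3 at -2.65 (0.0390). For Ro minus Control in the same fit 7 of 21 were lower in Ro, namely Cish, 4 probe sets of Socs2 and 2 of Socs3, against 3.55% of all probe sets. There 2 were higher in Ro, 1 each of Socs4 and Socs5, against 21.4%. The lone Control array is assumed in that fit to vary like the RA and Ro arrays, so it compares those libraries more than the conditions. Without Control replicate 2, limma called 0 of 21 members and 0% of all probe sets in either comparison. There 0 of the 21 and 756 of all probe sets (2.64%) had an unadjusted p under 0.05 for RA minus Control, and 0 and 1040 (3.64%) for Ro minus Control. Cish then stood at -0.12 for RA minus Control and -0.11 for Ro minus Control, and Socs3 at 0.12 and 0.50. Control replicate 1 lay within the range of the 4 RA and Ro arrays for 8 of the 8 genes, a position also found for 75.7% of all genes counted. The culture protocol, the high Klrc1, Klrk1 and Cd8a signals, the low Cd4 signal and the low macrophage and mast cell sums given above all go with Control replicate 2, and their part in these values was not tested.

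Between RA and Ro, Socs1 had the largest difference of the 8 genes when each was read from its representative probe set. It was lower in RA by 2.16 times on the mean signal. The log2 difference of RA minus Ro was -0.87 (SE 0.52, 95% interval -2.08 to 0.34) in the limma fit of all 6 arrays, with an adjusted p of 0.999. With the Control arrays left out of the limma fit it was -0.87 (SE 0.28, 95% interval -1.53 to -0.20), with an unadjusted p of 0.00583 and an adjusted p of 0.631. Socs1 did not pass in either fit. Over all 17 settings tried its difference ran from -1.01 to -0.70, always lower in RA, with limma adjusted p-values from 0.0768 to 1.00. The next largest was a second Socs4 probe set, at 52.2 and 48.6 in RA against 90.0 and 100.6 in Ro. Its log2 difference was -0.67 (SE 0.45), with a limma adjusted p of 0.999, or 0.664 in the fit of the 4 arrays. Its Control signals were 67.2 and 32.7.

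For the other members the differences between RA and Ro were within their errors. Cish stood at -0.05 (SE 0.75), Socs2 at -0.32 (SE 0.59), Socs3 at -0.40 (SE 0.80), Socs4 at -0.28 (SE 0.42), Socs5 at -0.12 (SE 0.55), Socs6 at -0.07 (SE 0.46) and Socs7 at -0.14 (SE 0.35). Of these, the sign turned without 1 array for all but Socs4, as given in the closing section. Socs4 was lower in RA by value under all 17 settings, at -0.39 to -0.16, with limma adjusted p-values from 0.261 to 1.00. In the fit of the 4 arrays the 95% interval of Cish ran from -0.74 to 0.66 and that of Socs7 from -0.75 to 0.48. The interval of Socs3 ran from -1.58 to 0.78, so differences of more than 2-fold lie within it. Limma called 0 of 22 members and 0% of all probe sets with 6 arrays, where 0 and 496 (1.68%) had an unadjusted p under 0.05. With the 4 arrays it called 0 of 21 members and 0.043% of all probe sets. At an unadjusted p under 0.05 it had 2 of the 21, Socs1 and the second Socs4 probe set, and 7.28% of all.

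**Figure D3:**
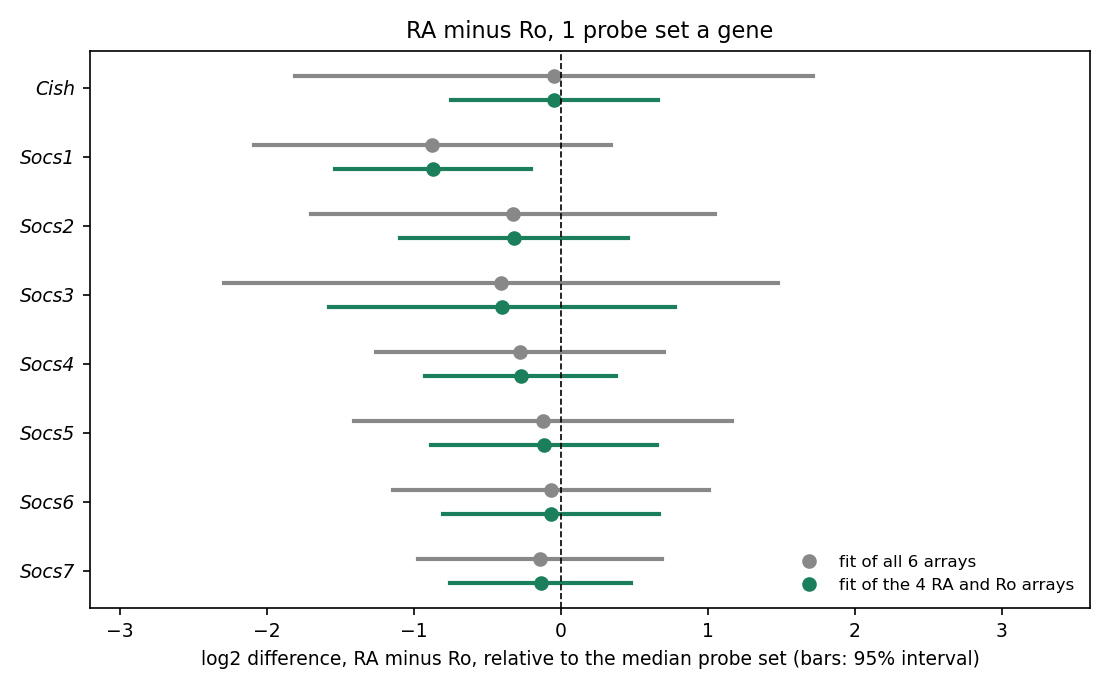
Points give the log2 difference of RA minus Ro relative to the median probe set for the representative probe set of each gene, and bars the 95% interval, in grey for limma on all 6 arrays and in green for limma on the 4 RA and Ro arrays. The interval of Socs1 lies below 0 in the 4-array fit (-1.53 to -0.20) and not in the 6-array fit; the other 7 genes include 0 in both.

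Both RA arrays lay below both Ro arrays for 7 of 21 member probe sets: Socs1, 2 of Socs4, 2 of Socs6 and 2 of Socs7. The share of all probe sets counted that did so was 33.8%, so the count is near the background, which holds the general shift between these arrays. None of the 21 lay higher in RA without overlap, against 6.44% of all. After quantile normalisation the counts were 5 of 21 lower, with Socs1 and both Socs4 probe sets among them, against 16.8%, and 0 higher, against 15.7%. Some markers of other cells were higher on the Ro arrays. The 8 mast cell and basophil markers summed to 1369 and 1605 in RA and 3798 to 5935 in Ro, and the CD8 markers (Cd8a and Cd8b1) to 58.9 to 93.1 and 139 to 187. The 5 NK cell markers overlapped, at 98.3 to 269.6 in RA and 252 to 536 in Ro. The part of these cells in the Socs1 values was not tested.

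The wider pathway was read from 10 lists with 90 genes tested, chosen like the members with earlier results of these data known, and limma called none of the 90 in any of the 3 comparisons. At an unadjusted p under 0.05 limma had 4 of them for RA minus Ro, against 1.92% of all genes tested, 7 for RA minus Control, against 1.72%, and 3 for Ro minus Control, against 4.43%. With the Control arrays left out it called 0 of 88, and 18 had an unadjusted p under 0.05, against 8.44% of all genes. As deposited, the JAK genes Jak1, Jak2, Jak3 and Tyk2 were never highest on Control replicate 2. Jak1, the kinase shared by gp130, interferon and common gamma chain receptors, had 1031 there and 2328 to 4748 elsewhere. Of the 6 STAT genes tested none was highest on that array either. The share of all genes counted that were highest there was 17.3%. With quantile normalisation 2 of the 4 JAK genes and 2 of the 6 STAT genes were highest there, against 35% of all genes. Stat5a, the factor behind Cish induction, had signals of 411 and 643 in Control, 209 and 428 in RA, and 530 and 681 in Ro, and Stat3 had 1341 and 1952, 877 and 1336, and 1533 and 2296. Both factors were lowest on RA replicate 1 and highest on Ro replicate 2. The partners that join the SOCS box to the ubiquitin ligase (Eloc, Elob, Cul5 and Rnf7) had no non-overlapping difference between RA and Ro. Lower in RA without overlap were 37.7% of all genes counted, or 17% after quantile normalisation. Higher were 6.44% of all probe sets. Of the 4 partners, 1 was highest on Control replicate 2 as deposited and 4 after quantile normalisation, against 17.3% and 35% of all genes. Cul5, the cullin scaffold, was lower in Ro than in Control by value, at -0.96 (SE 0.43).

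Most cytokine genes were high on Control replicate 2, as were target genes of STAT5 and most of STAT3. Of 12 cytokine genes tested, Il9 and Il15 passed the filter through 1 group alone and were not counted. Of the other 10, 9 were highest there, against 17.3% of all genes counted, and 7 by at least 2-fold, against 3.76%. The exception was Il6, lowest there at 1.83, against 63.5 to 253 elsewhere. Il21, which signals through STAT3, had 1566 there and 0.491 to 12.4 elsewhere, and Ifng had 2054 and 3.15 to 85.5. Il2, the main inducer of STAT5 in T cells, had 2288 and 31.7 to 61.0. Il21 is counted among both the cytokines and the STAT3 targets. It passed the filter only through Ro replicate 2 and Control replicate 2, so its place in these counts depended on Control replicate 2. All 11 STAT5 target genes were highest on that array, and 5 by at least 2-fold, Lta (3952, against 105 to 185) and Il2ra (3062, against 496 to 843) among them. Of 8 STAT3 target genes 6 were highest there, with Il17a at 1230 and 8.01 to 18.9 elsewhere, and Bcl6 was lowest there, at 98.5 and 174 to 354 elsewhere. Il6 and Bcl6 were named after their values were seen. With quantile normalisation the counts were 9 of 10, 11 of 11 and 7 of 8, against 35% of all genes. The list medians for RA minus Control were -1.73 for the cytokines, -0.96 for STAT5 targets and -1.35 for STAT3 targets, against 0.02 for all genes. For Ro minus Control they were -1.36, -0.73 and -0.81 in that order, against 0.04. For RA minus Ro they were -0.14, -0.12 and -0.12, against -0.03.

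Other inhibitors of the pathway showed a different pattern from Cish, Socs1, Socs2 and Socs3. Of 15 tested, 2 were highest and 13 lowest on Control replicate 2, against 17.3% and 51.1% of all genes counted. After quantile normalisation 3 were highest there, against 35% of all genes. For 12 of the 15 both RA arrays lay below both Ro arrays, against 37.7% of all genes counted, and after quantile normalisation for 3 of the 15, against 17%, near the background. Usp18, which blocks the type I interferon receptor, had 1010 and 20.0 in Control, 243 and 821 in RA, and 2076 and 1238 in Ro, a log2 difference of RA minus Ro of -1.62 (SE 1.56).

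**Figure D4:**
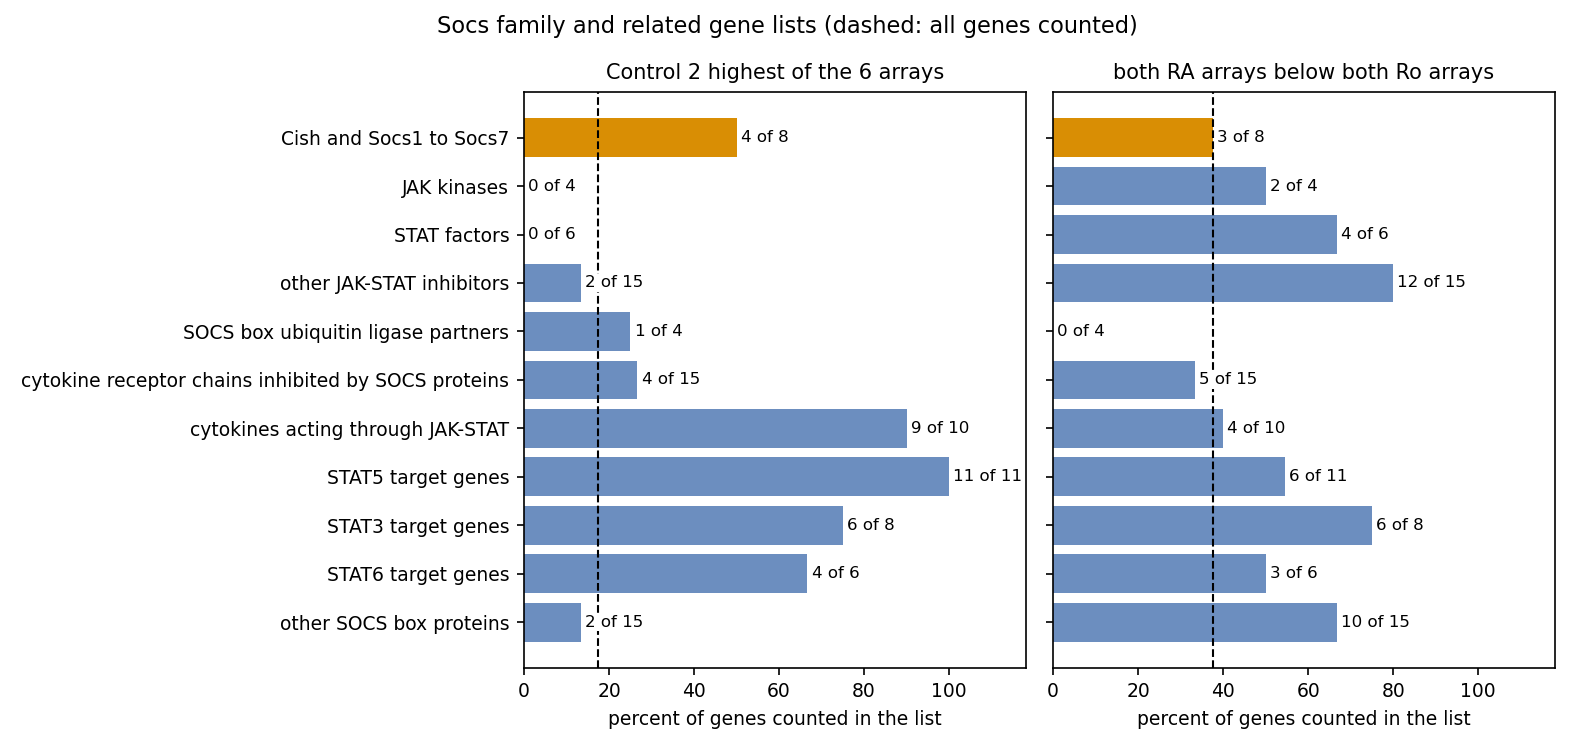
Bars give the percent of counted genes of each list (1 probe set a gene) that were highest on Control replicate 2 (left) or had both RA arrays below both Ro arrays (right); the counts stand beside the bars and dashed lines mark all genes counted (17.3% and 37.7%). At left cytokines, STAT5 targets and STAT3 targets have the longest bars (9 of 10, 11 of 11 and 6 of 8). At right other inhibitors and STAT3 targets do (12 of 15 and 6 of 8, or 3 and 1 after quantile normalisation). Other SOCS box proteins stand at 10 of 15 at right, or 9 after quantile normalisation. The SOCS family is at 4 of 8 at left and 3 of 8 at right.

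Among receptor chains that SOCS proteins act on, 15 were tested. Of these 15, 4 were highest on Control replicate 2, or 6 after quantile normalisation, against 17.3% and 35% of all genes. Il12rb2 and Il6ra had the largest differences between RA and Ro, at -1.77 (SE 0.54) and -1.32 (SE 0.37). Il6ra, the binding chain for IL6, stood at 296 and 438 in RA against 929 and 1182 in Ro, while its partner Il6st, the gp130 chain that Socs3 binds, had 634 and 1025 in RA and 722 and 1485 in Ro. Il6st was lowest on Control replicate 2, at 110.1, where Socs3 was highest. Of 6 STAT6 target genes 4 were highest on that array, or 4 after quantile normalisation, against 17.3% and 35% of all genes. Maf, a transcription factor of IL4 and IL21 production, had 1175 there and 54.1 to 93.9 elsewhere. Il4ra and Il4 led there by only 1.05 and 1.19 times. The other 2 were lowest there, Gata3 at 84.4, against 780 to 1043 elsewhere, and Gfi1 at 205, against 316 to 581. Other proteins that carry a SOCS box included 15 tested genes of the Asb, Wsb and Spsb families. Of these, 2 were highest on Control replicate 2, or 7 after quantile normalisation, against 17.3% and 35% of all genes. Spsb1 had 195 there and 7.17 to 39.6 elsewhere. For 10 of the 15 Asb, Wsb and Spsb genes both RA arrays lay below both Ro arrays, against 37.7% of all genes counted. After quantile normalisation 9 of the 15 did so, against 17%. Both RA arrays lay above both Ro arrays for 2 of the 15 as deposited. The share of all probe sets counted was 6.44% as deposited and 15.7% after quantile normalisation. Asb2, a SOCS box protein that targets filamins, was 1 of the 2 Asb, Wsb and Spsb genes. It was higher by value on the RA arrays, at 184 and 129 against 102 and 62.5 in Ro (log2 difference 1.14, SE 0.44).

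The genes closest in profile to Cish, Socs1, Socs2 and Socs3 were found by the root mean square distance between centred log2 values over the 6 arrays, among 12986 genes tested. Cish lay nearest to Sestd1 (distance 0.08) and Gem, a small GTPase (0.14). Gem had signals of 46.1 and 286 in Control, 31.4 and 29.8 in RA, and 53.8 and 38.2 in Ro. Socs2 lay nearest to the transcription factor genes Cebpb (0.10) and Bhlhe40 (0.17). Cebpb had 448 and 1313 in Control, 324 and 269 in RA, and 620.2 and 338 in Ro, with Ro replicate 1 second highest as for Socs2. Socs1 lay nearest to Zc3h12d (0.15), which encodes a zinc finger protein that degrades mRNA, and Pdzk1ip1 (0.16). Zc3h12d had 520.3 and 1352 in Control, 389.5 and 472 in RA, and 611 and 872 in Ro. Socs3 lay nearest to E130317F20Rik (0.15) and Dlg2 (0.18), both dim at 22.2 or less on every array.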

How the data were processed

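RNA of 6 samples, 2 each of Control, RA and Ro, was measured on oligonucleotide arrays from 2 ug of total RNA, per the labels. The deposited intensity values, on a linear scale, were computed with MAS5 according to the submitters' processing notes, which name no version. Groups and replicate numbers were taken from the titles, where Ro is once written RO. Gene symbols came from the platform annotation (34958 probe sets with 1 symbol, 932 with several, 9211 with none), and 64 control probe sets were left out.

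Tests used limma 3.58.1 in R 4.3.3 (lmFit, eBayes with an intensity trend, two-sided) on log2(signal + 2.999), the pseudocount being the 20th percentile of all values. P-values were adjusted by Benjamini-Hochberg over all probe sets tested, at 0.05. The 6-array fit had 3 residual degrees of freedom, and the script was tested on simulated data. For each gene the tested probe set of highest mean log2 value was used, but no name with _x_ or _s_ where another existed. All members were named, with up to 2 genes per list and comparison by size of difference, and JAK, STAT and ligase partner genes freely. Counts of array order leave out probe sets that passed the filter through the 2 arrays of 1 group alone, a rule set after seeing the data. One further list is not reported here. Members and lists were chosen with earlier results of these data known. Alternatives were other pseudocounts, normalizations and filters, no trend, a replicate block, fits of the groups compared and leaving out each array.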

Additional observations from a re-analysis of the deposited data

How the results depend on the processing

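With all 6 arrays limma called 0 probe sets in each comparison. Fitting only the groups compared gave 12 for RA minus Ro. Leaving out 1 array at a time gave 0 to 12 for RA minus Ro, 0 to 4372 for RA minus Control and 0 to 7211 for Ro minus Control, and 0 to 9 members called in each of the latter; the highest counts of both came without Control replicate 1. The replicate block gave 0 calls in all 3 comparisons. The block fitted to only the groups compared, chosen after seeing the data, gave 106, 56 and 93 calls and 0 members. Correlations of same-numbered deviations were 0.00477 (Control and RA), -0.029 (Control and Ro) and 0.249 (RA and Ro). Those with Control lay near 0, whereas RA and Ro shared part of their deviations by replicate number. Whether the numbers pair the samples was not tested further. Of 17 single differences under 16 settings, 1 turned outside leave-one-out, Cish for RA minus Ro at 0.039 after quantile normalization. Leave-one-out ranges that crossed 0 for RA minus Ro were -0.45 to 0.39 (Cish), -0.86 to 0.25 (Socs2), -1.07 to 0.29 (Socs3), -0.30 to 0.10 (Socs5), -0.23 to 0.10 (Socs6) and -0.30 to 0.052 (Socs7). Against Control they were -2.65 to 0.12 (Socs3, RA), -1.40 to 0.52 (Socs1, Ro) and -2.22 to 0.50 (Socs3, Ro). The cause was not tested. With 2 arrays a group, their number limits the precision.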
